A study of Macaca mulatta with 2 samples.

Results

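The genes described here are 54 cell cycle and DNA replication genes, among 21509 gene names on the array. They were found by their gene names among the probes that are not controls, and all 54 were present, with 71 probes. By the point of the cycle at which they act, 25 belong to the G1/S transition and DNA replication and 29 to G2 and mitosis. Messenger RNA was measured on 1 array from an infant and 1 array from a pubertal primary Sertoli cell culture of rhesus macaque testis. The infant cells came from males under 3 months of age, and the pubertal cells from males of 18 to 22 months, juveniles in which puberty had been induced by pulses of gonadotropin-releasing hormone for 4 to 5 weeks. Each pulse lasted 2 min at 0.15 µg/min and came every 3 h. Both cultures had received 5 ng/ml follicle-stimulating hormone together with 100 nM testosterone, for 12 h, so no untreated cells enter the comparison. The labels do not say from how many animals a culture was made.

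Sertoli cells nurse the germ cells inside the seminiferous tubule. They divide while immature and stop dividing as they mature, after which their number limits how many germ cells a testis can carry. A cell enters the cycle when D cyclins with CDK4 or CDK6, and then cyclin E with CDK2, release E2F factors, which switch on replication genes. Origins are licensed by CDC6, CDT1 and the MCM helicase, and cyclin B with CDK1 then drives mitosis until the anaphase-promoting complex, with CDC20 and UBE2C, ends it. Replication genes are largely E2F targets, whereas mitotic genes peak later, under FOXM1 and the MuvB complex.

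A level is the log2 of a signal after division by its array's 75th percentile, and each difference is pubertal minus infant. With 1 array per group no difference carries a test, and animal, culture, age and the induction of puberty cannot be told apart. The error given with a difference is that of the scanner software. It had a median of 0.20 over the measured members and covers the array, not the culture. A probe counted as detected where it was flagged well above background. On each array 54.8% to 54.9% of gene spots were well above background, and none of the members' spots was saturated or an outlier. All 18 markers of Sertoli cells that were looked up were detected on both arrays. Of these, 15 were higher in the pubertal culture, where 54.2% of all measured genes were lower. By 2-fold or more 5 were higher and 1 lower, against 7.32% and 6.32% of all measured genes. The median difference of the markers was 0.41 and their range -1.31 to 3.32. Their summed signal was 350.7 (pubertal) and 261.0 (infant), in units of the array's 75th percentile. The 3 with the highest mean signal were clusterin CLU (7.07 pubertal, 6.35 infant), the inhibin subunit INHA (5.24 and 5.76) and INHBB (5.13 and 6.44). INHA and INHBB belong to the 3 markers that were lower, and the largest differences were those of TF (3.32) and AMH (3.28).

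The probes are human 60-base oligonucleotides, so monkey messenger RNA had to bind across species. The deposited files give the sequence of each probe but no genome position for it. The probes below were chosen after their values were seen. CDK6, RRM2 and KIF20A show what was measured for 3 genes past a 2-fold lower signal in the pubertal culture. CDK6 and RRM2 each had 2 detected probes, and the printed one has the larger difference in size (-1.36 and -1.27). Their probes not printed gave -0.83 and -0.87, short of 2-fold. CDC2 is the mitotic kinase, PCNA and MCM5 are replication genes with small differences, and the NEK2 pair shows a gene with 1 detected and 1 undetected probe. Each of them reads through without a stop codon in at least 1 frame. They are written 5′ to 3′ in lower case, and no part is set in capitals because the whole probe was the measured target.
CDK6: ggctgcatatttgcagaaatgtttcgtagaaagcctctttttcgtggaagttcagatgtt
RRM2: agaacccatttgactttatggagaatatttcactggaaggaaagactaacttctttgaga
KIF20A: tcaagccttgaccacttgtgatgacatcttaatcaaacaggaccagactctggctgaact
CDC2: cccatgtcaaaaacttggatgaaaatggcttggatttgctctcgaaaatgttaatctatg
PCNA: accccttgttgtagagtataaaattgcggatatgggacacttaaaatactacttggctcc
MCM5: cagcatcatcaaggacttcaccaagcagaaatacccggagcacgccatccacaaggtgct
NEK2, detected probe: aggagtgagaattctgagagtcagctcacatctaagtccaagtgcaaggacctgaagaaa
NEK2, undetected probe: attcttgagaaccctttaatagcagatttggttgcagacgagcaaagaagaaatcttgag

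Most cell cycle genes had similar signals in the infant and the pubertal culture. Of the 54 genes, 50 were detected on both arrays, against 66.2% of all gene names. CCNE2 was detected in the pubertal culture alone, as were 4.22% of all names, and none of the members in the infant culture alone, against 3.15%. CDK2, MCM3 and MKI67 were detected on neither array, as were 26.3% of all names, so the data hold no difference for them.

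Of the 50 measured members, 5 had a pubertal signal lower by 2-fold or more, and none a signal higher by as much. The 5 were CDK6, TYMS, RRM2, UBE2C and KIF20A. Over all 14243 measured genes 7.32% passed 2-fold upward, 6.32% downward and 13.6% either way. Past 1.5-fold there were 2 members upward, E2F1 and CDC25C, and 9 downward, where 2142 of the 14243 genes passed upward and 16.8% downward, or 31.8% in all. Past 4-fold there was no member measured on both arrays, against 1.67% of all genes upward and 0.857% downward, or 2.53% in all. The further 4 that fell between 1.5-fold and 2-fold lower were CDC2, CENPA, CCND2 and ASPM.

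The median difference of the members was -0.07, beside -0.06 for all genes, and their range ran from -1.19 to 0.82. A difference smaller than 0.5 in size was found for 37 of the 50, which is 74.0% against 61.5% of all genes. Differences larger than 2 scanner errors were found for 15 members, 4 higher and 11 lower, where 22.0% of all genes were higher and 27.0% lower by as much. That is 30.0% of the measured members and 49.1% of all genes.

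**Figure D1:**
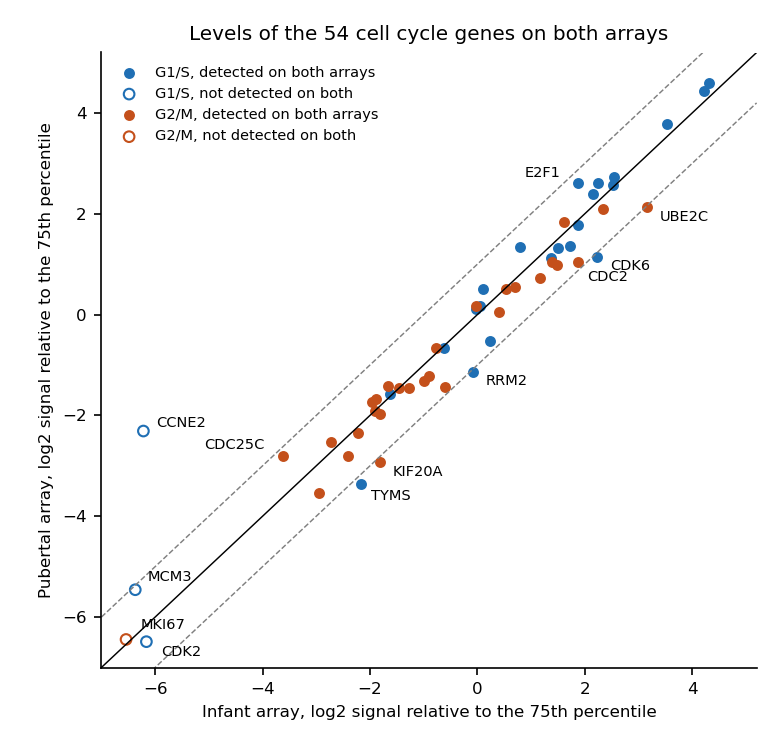
Level of each of the 54 genes on the infant array (horizontal) and on the pubertal array (vertical), as log2 of the signal over the array's 75th percentile. The solid line marks equal levels, the dashed lines 2-fold differences, and open circles genes not detected on both arrays. Of the 50 filled points, 5 lie on or below the lower dashed line and none on or above the upper.

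These directions, and whether most signals are similar, depend on how the arrays are put on a common scale. Scaling on the spike-in control probes raised every difference by 0.98, so that 21 members passed 2-fold upward and none downward, and 5 lay below 0. Those 5 were the same genes that passed 2-fold downward on the main scale. That follows from adding the same amount to every difference and lends them no support. On the spike-in scale 98.0% of the 2-fold calls over all genes were upward, in place of 53.7%, and with scaling on the median they were 37.6%. Gaps between genes on the same array do not change with these scalings.

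The genes of G1/S and those of G2/M differed slightly in their medians. The 22 measured G1/S members had a median difference of 0.09, with 13 above and 9 below 0. The 28 measured G2/M members had a median of -0.17, with 8 above and 20 below 0. Of all measured genes 54.2% lay below 0. Where 0 lies depends on the scaling, and with median scaling the G1/S median was -0.07 and the G2/M median -0.33. The gap between the medians was -0.26, and under the alternative settings it lay between -0.38 and -0.23. Of the 5 genes past 2-fold, 3 were G1/S and 2 were G2/M members. The interquartile range ran from -0.23 to 0.24 for G1/S and from -0.41 to 0.13 for G2/M members, and from -0.42 to 0.33 for all measured genes.

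**Figure D2:**
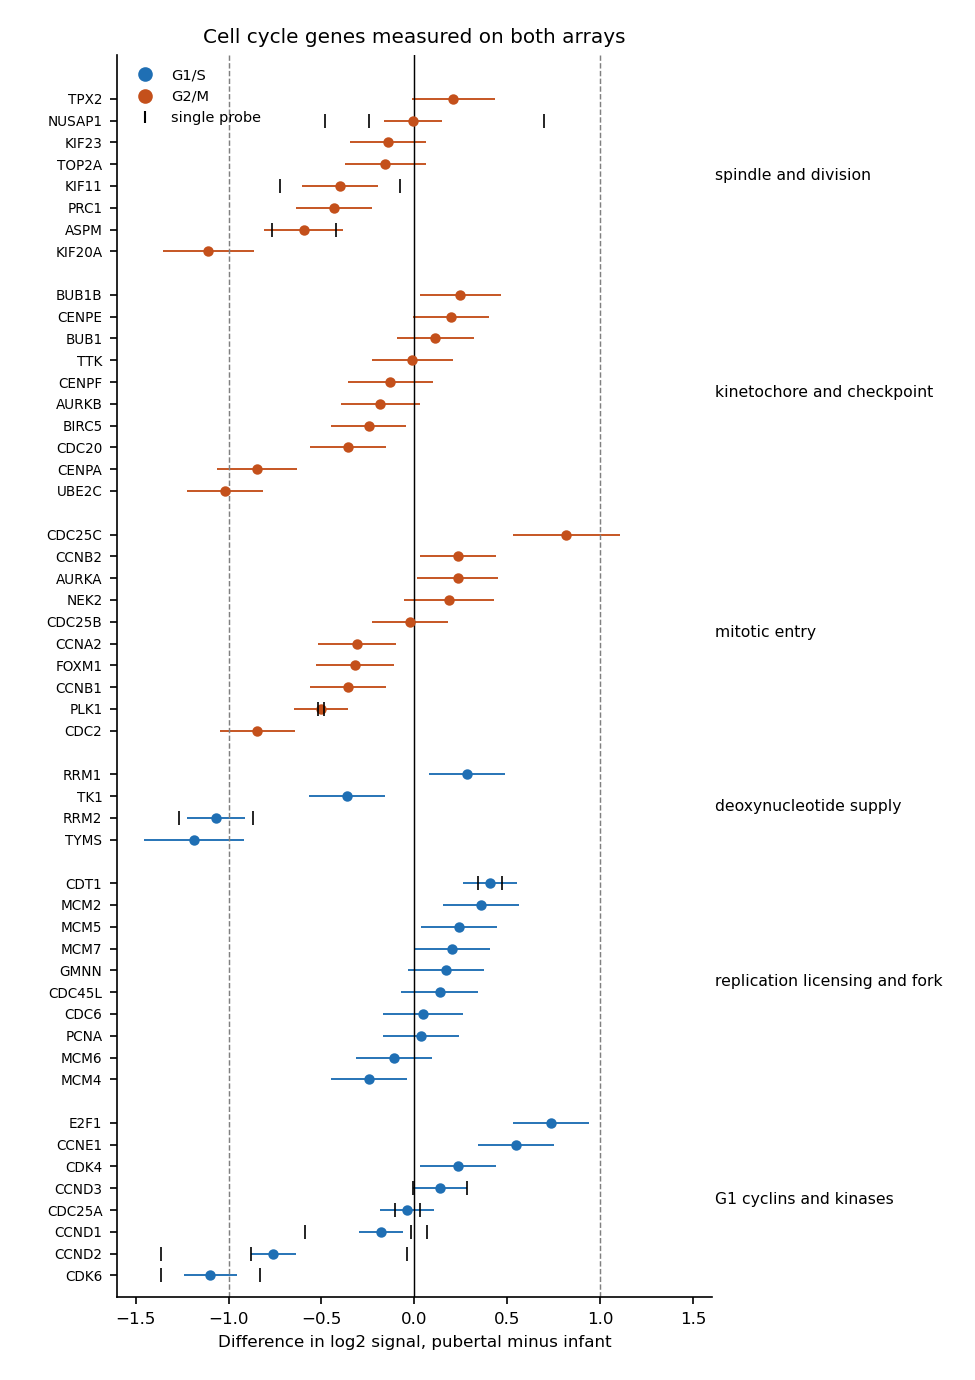
Difference in log2 signal, pubertal minus infant, of the 50 genes measured on both arrays, grouped by role, with G1/S genes in blue and G2/M genes in orange. Bars are the scanner error of 1 array pair, black ticks are single probes of genes with several detected probes, and dashed lines mark 2-fold. Licensing genes lie near or above 0, and the 3 genes of deoxynucleotide supply other than RRM1 lie below it.

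Among G1 cyclins and kinases, members of the same family had differences of unlike size. CDK6, a kinase partner of the D cyclins, had a level of 1.13 (pubertal) and 2.23 (infant), a difference of -1.10 ± 0.14 (scanner error), or 2.14-fold lower. Both of its probes were lower, at -1.36 and -0.83, and the brighter, at -0.83, is by itself short of 2-fold. CDK4, the other partner kinase, had levels of 3.77 and 3.54, a difference of 0.24 ± 0.20. The gap between the differences of these kinases was 1.33.

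Cyclin D2, CCND2, had a mean level of -0.53 (pubertal) and 0.23 (infant), a difference of -0.76 ± 0.12. Its 3 probes gave -1.36, -0.88 and -0.04, a spread far larger than the scanner error. The probe at -0.88 lay in a disturbed area, a stretch of the slide where neighbouring spots of unrelated genes shared large differences, and without it the difference was -0.70. Cyclin D1, CCND1, had levels of 1.33 and 1.51 (-0.18 ± 0.12), and its 3 probes ran from -0.59 to 0.07. Cyclin D3, CCND3, had levels of 0.11 and -0.03 (0.14 ± 0.15). Its sign turned with median scaling, with the brightest probe alone and without spots in disturbed areas.

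E2F1, the factor that switches on replication genes, had the largest positive difference of the G1/S members detected on both arrays. Its level was 2.62 (pubertal) and 1.88 (infant), a difference of 0.73 ± 0.20 or 1.66-fold. Cyclin E1, CCNE1, which partners CDK2, had levels of 1.35 and 0.80, a difference of 0.55 ± 0.20. CDC25A, the phosphatase that activates CDK2, had levels of -0.66 and -0.62 (-0.04 ± 0.15) with both probes within 0.11 of 0. CDK2 itself was below detection in both cultures.

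Cyclin E2, CCNE2, was detected in the pubertal culture alone. Its level was -2.31 there and -6.22, not well above background, on the infant array. Against the lowest detected signal of the infant array, -4.36, it was 4.15-fold higher. Some undetected probes of that array lay above -4.36, such as SYCP3 at -4.08, so 4.15-fold is not a strict minimum. The only spot of CCNE2 lay in an area counted as disturbed, and without that spot the gene had no value.

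Replication licensing and fork genes were the group with the smallest spread. All 10 that were measured differed by less than 0.41 in size, with a median of 0.15. Of the 10, 8 lay above 0, where 54.2% of all measured genes lay below 0. With median scaling CDC6, CDC45L and PCNA turned below 0, at -0.11, -0.02 and -0.12. CDC6 did so also with quantile normalization and PCNA with normexp background correction. CDT1, which loads the helicase on origins, had levels of 0.51 and 0.11, a difference of 0.41 ± 0.15 with probes at 0.47 and 0.34. Its inhibitor geminin, GMNN, had levels of 2.72 and 2.55 (0.17 ± 0.20). CDC6, the other loader, had levels of -1.58 and -1.62 (0.05 ± 0.21). Only CDT1 of this group differed by more than 2 scanner errors.

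Subunits of the MCM helicase differed by similarly small amounts in both directions. MCM2 had levels of 2.61 and 2.25 (0.36 ± 0.20), MCM5 2.39 and 2.15 (0.24 ± 0.20) and MCM7 4.43 and 4.23 (0.20 ± 0.20). MCM6 had levels of 1.77 and 1.88 (-0.11 ± 0.20) and MCM4 of 1.13 and 1.37 (-0.25 ± 0.20). MCM3 was not detected on either array, so the sixth subunit of the helicase was not measured. CDC45L, now named CDC45, which joins the helicase at the fork, had levels of 0.18 and 0.04 (0.14 ± 0.20). The sliding clamp PCNA had levels of 2.57 and 2.53 (0.04 ± 0.20).

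Of 4 enzymes that supply deoxynucleotides, TYMS and RRM2 passed 2-fold downward, and RRM1 and TK1 lay within 2 scanner errors of 0. Over all measured genes 6.32% passed 2-fold downward. TYMS, which makes thymidylate, had a level of -3.36 (pubertal) and -2.17 (infant). Its difference was -1.19 ± 0.27, or 2.27-fold lower, but -0.63 with normexp background correction. RRM2, the small subunit of ribonucleotide reductase, made in S phase, had levels of -1.14 and -0.07. Its difference was -1.07 ± 0.16 (2.10-fold lower), with probes at -1.27 and -0.87, and -0.76 with normexp correction. The large subunit RRM1, whose protein is present more evenly through the cycle, had levels of 4.60 and 4.31 (0.28 ± 0.20). The gap between the differences of the subunits was 1.35. TK1, which salvages thymidine, had levels of 1.36 and 1.73 (-0.36 ± 0.20).

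Of the genes that act at mitotic entry, none of 10 passed 2-fold, and 6 lay below 0. Over all measured genes 13.6% passed 2-fold either way and 54.2% lay below 0. CDC2, the mitotic kinase now named CDK1, had a level of 1.04 (pubertal) and 1.88 (infant), a difference of -0.84 ± 0.20 or 1.80-fold lower. The differences of its cyclin partners were smaller in size. Cyclin B1, CCNB1, had levels of 1.03 and 1.39 (-0.36 ± 0.20), cyclin B2, CCNB2, of 1.84 and 1.61 (0.23 ± 0.20), and cyclin A2, CCNA2, of -1.21 and -0.90 (-0.31 ± 0.21). A second CCNB2 probe was not detected on either array.

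The phosphatase CDC25C, which removes the block on CDK1, had the largest positive difference of the members measured on both arrays on the main scale. Its levels were -2.80 and -3.61, both low, and its difference was 0.82 ± 0.29. With normexp background correction it was 0.26. CDC25B, its relative, had levels of 0.50 and 0.53 (-0.02 ± 0.20). Polo-like kinase PLK1 had mean levels of 0.98 and 1.48, a difference of -0.50 ± 0.15, and its probes agreed within 0.03. FOXM1, the factor that drives mitotic genes, had levels of -1.32 and -1.0 (-0.32 ± 0.21). The centrosomal kinases AURKA (-1.73 and -1.96, 0.23 ± 0.22) and NEK2 (-2.53 and -2.72, 0.19 ± 0.24) had small positive differences. The difference of NEK2 turned negative with its undetected probe included.

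Kinetochore and checkpoint genes held 2 of the larger negative differences. UBE2C, the ubiquitin-conjugating enzyme of the anaphase-promoting complex, had a level of 2.14 (pubertal) and 3.16 (infant). Its difference was -1.02 ± 0.20 (2.03-fold lower), just past 2-fold. It was short of 2-fold with the 75th percentile over detected probes (-0.95), quantile (-0.94) and loess normalization (-0.92). CENPA, the centromeric histone, had levels of -1.44 and -0.60 (-0.85 ± 0.21, 1.80-fold lower), just short of it. With scaling on the median, CENPA and CDC2 passed 2-fold. CDC20, which activates the complex, had levels of 0.06 and 0.41 (-0.36 ± 0.21).

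The remaining kinetochore genes differed by less than 0.25 in size. The checkpoint kinases BUB1 (-0.66 and -0.77, 0.11 ± 0.21), BUB1B (-1.42 and -1.67, 0.25 ± 0.22) and TTK (-1.92 and -1.91, -0.01 ± 0.22) were nearly level, and the only spot of TTK lay in a disturbed area. The kinetochore motor CENPE had levels of 0.17 and -0.02 (0.20 ± 0.21) and CENPF of -2.35 and -2.22 (-0.13 ± 0.23). AURKB (-1.46 and -1.28, -0.18 ± 0.21) and BIRC5 (2.09 and 2.34, -0.25 ± 0.20), partners in the chromosomal passenger complex, lay slightly below 0.

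Of 8 measured spindle and division genes, 7 lay below 0, with a median of -0.28, where 54.2% of all measured genes lay below 0. KIF20A, a kinesin of cytokinesis, had a level of -2.91 (pubertal) and -1.81 (infant), a difference of -1.11 ± 0.24 (2.16-fold lower), or -0.62 with normexp correction. ASPM, a spindle pole protein, had levels of -3.54 and -2.94 (-0.59 ± 0.21) with probes at -0.77 and -0.42. PRC1, which bundles microtubules of the midzone, had levels of 0.74 and 1.17 (-0.43 ± 0.20).

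The kinesin KIF11 had mean levels of -2.81 and -2.41 (-0.40 ± 0.20), with probes at -0.72 and -0.08. KIF23 had levels of 0.55 and 0.70 (-0.14 ± 0.20), and the spindle assembly factor TPX2 of -1.67 and -1.88 (0.21 ± 0.22). TOP2A, which untangles chromosomes, had levels of -1.97 and -1.81 (-0.16 ± 0.22). NUSAP1, a spindle protein, had mean levels of -1.46 and -1.45 (-0.01 ± 0.15), but its 3 probes ran from -0.48 to 0.70. The probe at 0.70 lay in a disturbed area, and the gene was at -0.36 without it. MKI67, the usual marker of dividing cells, was not detected on either array with its only probe, at -6.44 and -6.54, so these arrays give no value for it.

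Probes of the same gene show how far a difference depends on the probe. Of 11 members with several probes detected on both arrays, 4 had probes of opposite sign, CCND1, CCND3, CDC25A and NUSAP1. The SD between probes had a median of 0.28, beside 0.21 over 4767 genes of the whole array. The range between probes ran from 0.03 for PLK1 to 1.32 for CCND2. For CDK6, RRM2, ASPM, PLK1, CDT1, KIF11 and CCND2 all detected probes had the same sign.

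**Figure D3:**
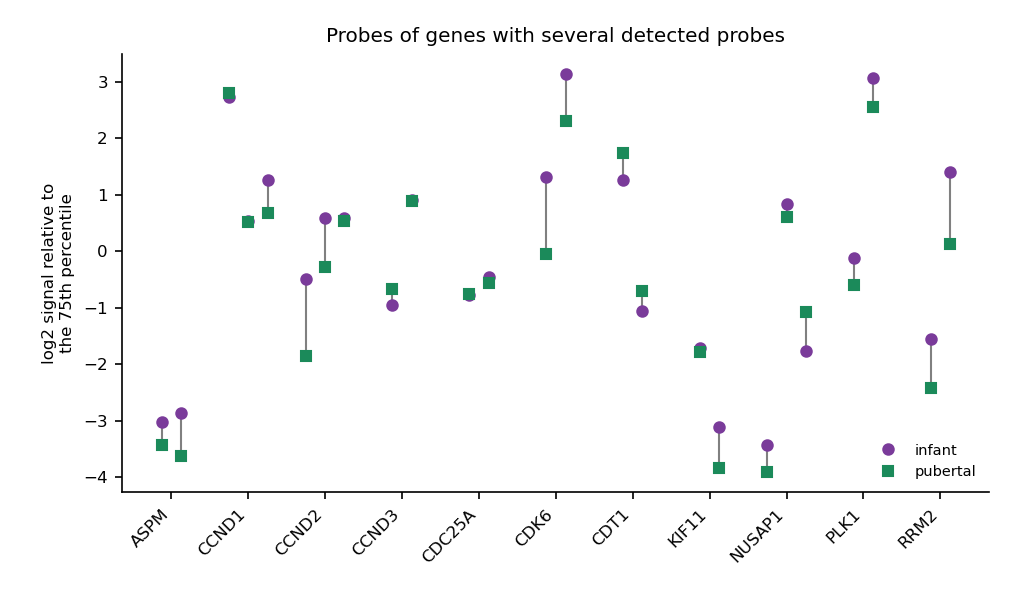
Level on the infant array (circles) and the pubertal array (squares) of each probe of the 11 genes with several detected probes, as log2 of the signal over the array's 75th percentile. Each grey line joins the values of 1 probe. Both CDK6 probes and both RRM2 probes are lower on the pubertal array, whereas the CCND2 probes differ by -1.36 to -0.04.

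Other genes of the same machinery were chosen by function with earlier results of these data known. Of 46 other measured replication genes 1 passed 2-fold upward and 1 downward, against 7.32% and 6.32% of all genes. The median of the 46 was 0.06. Beyond 2 scanner errors were 25 of the 46 and 15 of the 50 members, where the share of all genes was 49.1%. DTL, which marks CDT1 for destruction, was higher by 1.06 (-1.30 pubertal, -2.35 infant), and the helicase-related MCM8 by 0.90. MCM10, a fork factor, was lower at -1.05 (-3.19 and -2.14). MCM8 and MCM10 each had 2 probes, of which 1 was detected on both arrays. The gap between the differences of MCM7 and MCM10 was 1.26.

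Of 55 other measured mitotic genes 1 passed 2-fold upward and 1 downward, against 7.32% and 6.32% of all genes. The median of the 55 was 0.10, with 36 above 0, where 54.2% of all measured genes lay below 0. The negative median of the G2/M members was thus not seen in this larger list. The gap of the larger mitotic list to the other replication genes was 0.03. CASC5, a kinetochore scaffold, was higher by 1.40 and CENPO, of the inner kinetochore, by 0.81 with probes at 1.40 and 0.23. The NDC80 complex subunit SPC24 was lower at -1.19. CASC5 and SPC24 each had 3 probes, of which 1 was detected on both arrays.

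**Figure D4:**
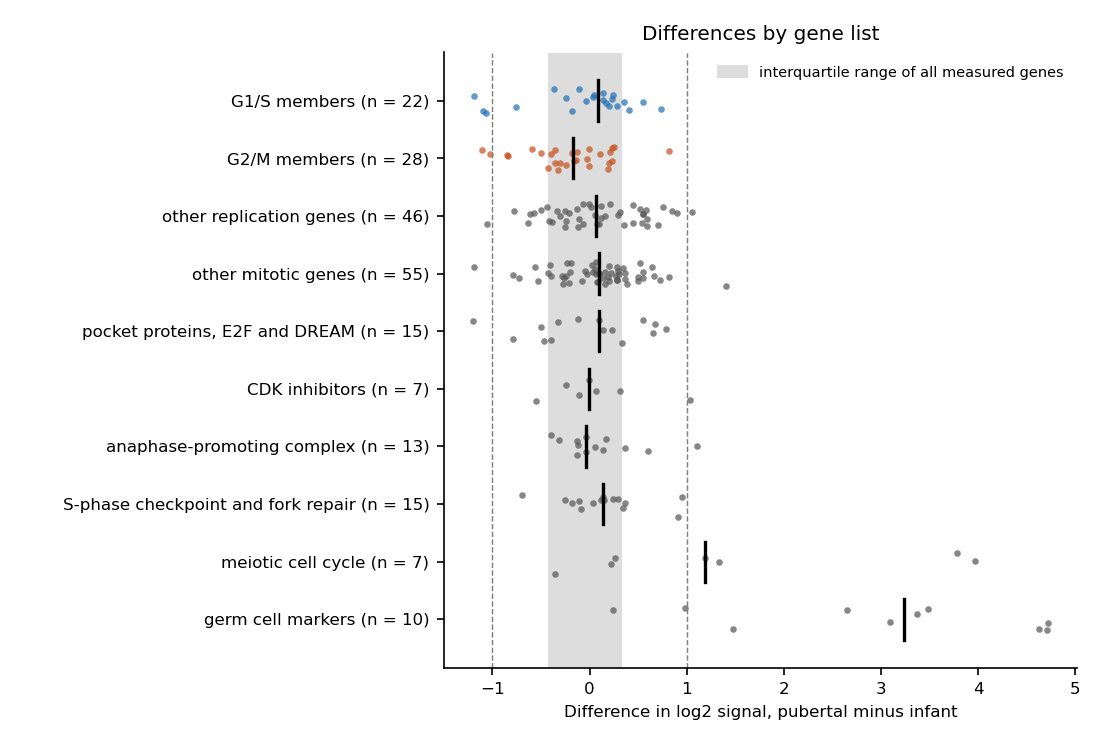
Difference in log2 signal, pubertal minus infant, of each gene measured on both arrays, by list. Black bars are list medians, the grey band is the interquartile range of all measured genes, and dashed lines mark 2-fold. The medians of the mitotic cycle lists lie between -0.17 and 0.14, and those of the meiotic and germ cell lists at 1.19 and 3.23.

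Regulators of the G1/S switch differed in both directions. Of 15 measured pocket proteins, E2F factors and DREAM subunits, 1 passed 2-fold downward and none upward, against 13.6% of all genes either way, and the median was 0.10. E2F3, an activator of replication genes, had levels of 1.41 and 2.61, a difference of -1.20 ± 0.20. The gap between the differences of E2F1 and E2F3 was 1.94. Of the E2F partners, TFDP1 was at 0.78 ± 0.16 and TFDP2 at -0.79 ± 0.12, each with all detected probes on the same side of 0.

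Of 7 CDK inhibitors, all measured, 1 passed 2-fold, upward, where 13.6% of all genes passed either way. CDKN1B, the p27 protein that restrains CDK2, had levels of -0.07 (pubertal) and -1.10 (infant). Its difference was 1.03 ± 0.16 (2.05-fold higher), with probes at 1.15 and 0.92. CDKN1A, the p21 protein, had levels of 2.62 and 3.16 (-0.55 ± 0.14), and CDKN2D was at 0.31 ± 0.20. The gap between the differences of CDKN1B and CDKN1A was 1.58.

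Meiotic cell cycle genes, which act in germ cells, differed far more than the mitotic ones. Of 20 on the array, 7 were measured on both arrays. Of these 4 passed 2-fold upward and none downward, against 7.32% and 6.32% of all genes. The median of the 7 was 1.19. Another 9 were detected on the pubertal array alone and 4 on neither, against 4.22% and 26.3% of all names. SYCP1, of the synaptonemal complex, had levels of 0.62 and -3.35 (3.97 ± 0.25), and the meiotic cohesin STAG3 of 2.89 and -0.89 (3.78 ± 0.21). Of the 2 SYCP1 probes, 1 was detected on both arrays. Cyclin B3, CCNB3, was higher by 1.33.

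Markers of other cell types also differed between the cultures, and their part in the differences of the cell cycle genes was not tested. Fewer cells of a type and less RNA per cell cannot be told apart in these cultures. For each list the 3 genes with the highest mean signal are named, which need not be those with the largest differences. Over all measured genes 7.32% passed 2-fold upward and 6.32% downward. Of 24 germ cell markers, 10 were measured on both arrays, 10 were detected on the pubertal array alone, 1 on the infant array alone, and GFRA1, NANOS2 and LIN28 on neither. The 10 measured were all above 0, 8 of them 2-fold or more, with a median of 3.23 and a range of 0.24 to 4.72. UTF1, NANOS3 and ZBTB16 had the 3 smallest of these differences, 0.24, 1.48 and 0.98. The summed signal was 18.1 (pubertal) and 5.45 (infant), in units of the 75th percentile of the array.

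All 12 peritubular myoid and smooth muscle markers were measured, 10 of them above 0 and 6 by 2-fold or more, with a median of 0.86 and a range of -0.91 to 3.46. Their sums were 218.7 and 145.0, and CNN1 was at 0.62, TPM2 at 1.09 and LMOD1 at -0.85. Of 10 macrophage markers 6 were measured, 5 above and 1 below 0, with a median of 1.65, a range of -0.94 to 3.09 and sums of 5.06 and 1.16. Among them were CD163 (3.09), TYROBP (1.32) and CD14 (0.60), and C1QA and LYZ were detected on neither array.

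Of 8 Leydig cell markers 7 were measured, 3 of them lower by 2-fold or more and 4 above 0. Their range was -4.24 to 0.41 and their sums 71.8 and 172.0. Of these STAR was at -4.24, HSD3B2 at 0.25 and HSD3B1 at 0.29, and the receptor LHCGR was not detected. Of 8 fibroblast markers 7 were measured and 1 was detected on the pubertal array alone. The 7 had a median of -0.53, with 4 below 0, a range of -1.49 to 1.92 and sums of 39.0 and 44.1, and COL1A1 was at 0.22, DCN at -1.49 and THY1 at 0.29. Of 8 endothelial markers 3 were measured (PECAM1 1.43, VWF 0.99, CLDN5 0.68), with sums of 1.68 and 0.79, 1 was detected on the pubertal array alone, and CDH5, KDR, TIE1 and EMCN on neither.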

How the data were processed

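The deposited values are spot intensities of 1-colour (Cy3) arrays. The submitters' processing notes name Agilent Feature Extraction, version 10.5.1.1. The deposited intensity used here had its background subtracted and was detrended within the array, per the file headers, which also name hg18 for the human design. It was divided by the 75th percentile over gene spots (406.7 pubertal, 382.4 infant), and log2 was taken, leaving out 96 and 91 outlier spots. Spots of 1 probe were averaged. A probe was detected with at least 50% of its spots well above background. Probes detected on both arrays were averaged per gene. A gene detected on 1 array has a bound set against the lowest detected signal of the other. Probes named only by accession were left out.

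No test was made between 2 arrays, and their number limits the precision. All members were named whatever their values, with the 3 largest differences of each related list and the 3 brightest genes of each marker list. Gaps between pairs of genes were chosen after their values were seen. Members and lists were chosen with earlier results of these data known. Of the members, 52 had a name or synonym in the macaque gene tables. The functions were tested on simulated data. Python 3.11.15, R 4.3.3 and limma 3.58.1 were used. Alternatives were other scalings, background correction, dim-probe filters, probe rules and thresholds.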

Additional observations from a re-analysis of the deposited data

How the results depend on the processing

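No paired analysis was possible because each group had 1 array, and no replicate could be left out. Spike-in scaling changed the counts most. It gave 21 members at least 2-fold higher and 0 lower, with medians of 0.91 over all members, 1.08 for G1/S and 0.81 for G2/M members. The number at least 2-fold lower, 5 on the main scale, was 2 with normexp correction (CDK6 and UBE2C), and 3 (CDK6, RRM2 and UBE2C) among probes above the median signal of both arrays. It was 9 at a threshold of 1.5-fold, where 2 were higher, and 0 at 4-fold. With no filter on dim probes, or with the weaker detection flag, 1 member, CCNE2, was at least 2-fold higher. The gap between G1/S and G2/M medians stayed negative in every setting that gave one. With median, spike-in or detected-probe percentile scaling it could not change, because the same amount is added to every difference. Of the 50 members, 39 kept their sign in every alternative other than spike-in scaling that gave them a value, 15 above and 24 below 0. There were 12 such alternatives, or 11 for TYMS, CDC25C, KIF20A and ASPM, which had no value among probes above the median signal. None of the 5 members past 2-fold turned its sign, which for scalings by a constant follows from the size of their differences. Over all genes, 1042 passed 2-fold upward and 900 downward on the main scale. These counts were 6372 and 128 with spike-in scaling, 553 and 568 with normexp correction, 2081 and 1485 with no filter, and 1710 and 1363 with the weaker flag. The median of all genes shifted by 0.98 with spike-in scaling, -0.16 with median scaling and 0.11 with no filter. The causes were not tested. Spots in disturbed areas, 1.58% of each array, included the only spots of CCNE2 and TTK. Dim genes such as TYMS, KIF20A and CDC25C lie near background, which limits their values.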

Other observations

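Genes that guard replication were also measured. Of 15 measured genes of the S-phase checkpoint and fork repair, none passed 2-fold, against 13.6% of all genes. The median was 0.14 and 10 lay above 0, where 54.2% of all measured genes lay below 0. The checkpoint kinase ATR had levels of 1.84 (pubertal) and 0.94 (infant) (0.91 ± 0.20). BARD1, the partner of BRCA1, had levels of -1.10 and -2.05 (0.95 ± 0.22), and the nuclease EXO1 of -3.09 and -2.39 (-0.70 ± 0.26).

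All 13 subunits and coactivators of the anaphase-promoting complex that were looked up were measured, with a median of -0.03. ANAPC13 was the only gene of this list past 2-fold, where 13.6% of all genes passed either way. Its levels were 4.23 and 3.12 (1.1 ± 0.20). ANAPC4 was at 0.60 ± 0.20 and the coactivator FZR1, which acts in G1, at -0.39 ± 0.12.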
